A study of Mus musculus with 48 samples.

Results

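Col1a1, Col1a2, Col3a1, Col5a1 and Col5a2 encode the chains of the fibrillar collagens of types I, III and V. They were taken by symbol from the count table, as 5 of its 32544 gene rows, and all 5 were among the 16882 genes that passed the filter on low counts. RNA came from the tibial metaphysis, the flared end of the shin bone, of male mice aged 19 weeks. In each mouse a cast held the left hindlimb for 3 weeks (immobilized limb), and the right limb went without a cast (control limb). The inbred strains were 3 wild-derived ones (CAST/EiJ, PWK/PhJ, WSB/EiJ) and the laboratory strains NOD/ShiLtJ, C57BL/6J, 129S1/SvImJ, NZO/HlLtJ and A/J, with 3 immobilized and 3 control libraries each, apart from A/J, in which 1 control library was usable. The cast was on the left in all mice, and its effect cannot be told apart from that of body side.

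Fibrillar collagens are secreted as procollagens, trimmed at both ends and packed side by side into cross-linked fibrils. Type I collagen, built from Col1a1 and Col1a2 chains, is the main protein of bone matrix and is made there by osteoblasts. Type III collagen, built from Col3a1 chains alone, accompanies it in softer tissues such as skin, vessels, tendon sheaths and periosteum. Type V collagen, built mostly from Col5a1 and Col5a2 chains, lies inside type I fibrils, where it helps to start them and limits their width.

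Total counts ran from 5253408 to 14744056 in the 46 usable libraries, and A/J control replicates 2 and 5, with 2335 and 50 counts, were left out. Both limbs were thus available in 22 mice, of which 1 was A/J. Levels are given as CPM, each gene's share of the library's counts on the usual CPM scale, with library sizes adjusted by edgeR's TMM factors. NZO/HlLtJ control replicate 4 stood apart, with 1455 CPM summed over 6 marrow blood cell markers, against at least 19859 CPM in every other library. Bone was represented throughout, since 6 of 7 osteoblast markers had counts in all 46 libraries and Bglap2 in 44. No marker was at 0 in a whole group apart from the cartilage genes Col10a1 in the A/J control library and Matn1 in NZO/HlLtJ control limbs. Summed skeletal muscle markers, 10 genes, ranged from 20.97 to 18834 CPM in immobilized limbs and from 54.9 to 54789 CPM in control limbs.

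On GRCm38 the genes lie at chr11:94936224-94953042 (Col1a1, plus strand), chr6:4504814-4541544 (Col1a2, plus), chr1:45311538-45349706 (Col3a1, plus), chr2:27886425-28039514 (Col5a1, plus) and chr1:45374321-45503282 (Col5a2, minus). Col3a1 and Col5a2 are neighbours that face each other tail to tail across 24614 bases. Col5a1 is overlapped on the other strand by the noncoding genes 2810430I11Rik and Gm13372. The strand setting of the counting is not given in the sources used here, so reads of these genes cannot be told apart. On the same strand, Col1a2 is overlapped by Gm43921, Col3a1 by the microRNA gene Gm47302 and Col5a2 by Gm38211. How the counting treated these overlaps is not given either. RefSeq's promoter table for GRCm38.p6 (250 bases before to 50 bases after the start site) matched 3 of the 5 genes, Col1a2, Col3a1 and Col5a1. Their sequences are shown because they give 1 chain of each collagen type, whose changes with the cast are set side by side further on. Capitals mark matches on either strand, with no overlap among them, to the core promoter motif TATAAA, to CCAAT as bound by nuclear factor Y, or to GGGCGG as bound by Sp1-type factors. In the Col1a2 window, chr6:4505368-4505667 on the plus strand, GC content was 61.0%, with 13 CpG sites, CCAAT at position -109 and, on the minus strand, at 1, and GGGCGG at -205 and -188.
Col1a2: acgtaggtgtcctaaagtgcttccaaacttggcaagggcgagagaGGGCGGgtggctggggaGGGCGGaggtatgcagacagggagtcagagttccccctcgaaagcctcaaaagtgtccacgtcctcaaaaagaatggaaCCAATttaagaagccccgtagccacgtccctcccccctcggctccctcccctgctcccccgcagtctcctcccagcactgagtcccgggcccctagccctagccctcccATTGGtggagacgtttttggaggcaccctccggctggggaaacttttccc
The Col3a1 window, chr1:45311288-45311587 on the plus strand, had a GC content of 37.7%, 0 CpG sites and 1 match, TATAAA at -117.
Col3a1: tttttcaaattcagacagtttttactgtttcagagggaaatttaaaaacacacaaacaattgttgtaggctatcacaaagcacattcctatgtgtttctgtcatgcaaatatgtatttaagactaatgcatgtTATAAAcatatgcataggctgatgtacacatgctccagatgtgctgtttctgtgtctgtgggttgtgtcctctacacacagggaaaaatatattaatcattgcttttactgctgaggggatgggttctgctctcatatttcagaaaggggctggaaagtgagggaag
The Col5a1 window, chr2:27886175-27886474 on the plus strand, had a GC content of 75%, 34 CpG sites, and GGGCGG at -73 and, on the minus strand, at -205.
Col5a1: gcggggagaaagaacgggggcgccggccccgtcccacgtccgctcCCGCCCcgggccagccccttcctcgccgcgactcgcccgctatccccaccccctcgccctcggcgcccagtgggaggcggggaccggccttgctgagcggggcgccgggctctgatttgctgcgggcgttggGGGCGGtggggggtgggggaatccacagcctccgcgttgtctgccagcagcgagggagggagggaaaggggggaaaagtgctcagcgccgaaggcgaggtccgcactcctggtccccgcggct
Of all 32851 promoters of this length, 13.6% held TATAAA, 37.4% CCAAT and 35.7% GGGCGG, and the median GC content was 52.7% with a median of 7 CpG sites. The type III window thus lay below the lower quartile of GC content (45.7%) and the type V window above the upper quartile (61.7%).

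Averaged over the 8 strains, all 5 genes rose in the immobilized limb, by 0.74 to 1.08 on the log2 scale, while the median change of all genes was 0.01. Every strain weighs the same in this average, so the 1 A/J pair counts as much as 3 mice of another strain. Without that pair the rises were 1.64 for Col1a1, 1.595 for Col1a2, 1.24 for Col3a1, 1.15 for Col5a1 and 1.51 for Col5a2. They were lowest, at 0.66 to 0.97, without NZO/HlLtJ mouse 5. Changes come from edgeR's quasi-likelihood test with a term for each mouse, and FDR is the Benjamini-Hochberg adjusted p over all genes tested, called at 0.05. Each replicate is a mouse, so these values measure the spread between these mice. Col1a1 had 2367, 14083 and 113559 CPM as the lowest, median and highest of 24 immobilized limbs, against 1586, 6761 and 42740 CPM in 22 control limbs. It rose by 1.08 ± 0.22 (log2, SE, 22 mice, FDR 0.0112) with the cast limb the higher in 18 of 22 mice. Its partner in type I collagen, Col1a2, ran over 3251, 18206 and 137149 CPM in immobilized limbs and 1968, 8307 and 55040 CPM in control limbs, and rose by 1.05 ± 0.22 (FDR 0.0120, 19 of 22 mice). Over all strains the ranges of the limbs overlapped widely for both genes. In such bulk tissue, more cells of a kind and more RNA per cell cannot be told apart.

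The type V chains followed. Col5a1, the chain shared by nearly all type V molecules, lay at 101, 450 and 1674 CPM in immobilized limbs and at 70.9, 197 and 915 CPM in control limbs, and rose by 0.74 ± 0.14 (FDR 0.00724, 19 of 22 mice). Col5a2 lay at 277, 1330 and 10326 CPM in immobilized limbs and at 134, 599 and 4325 CPM in control limbs, and rose by 1.04 ± 0.20 (FDR 0.00825, 17 of 22 mice). Col3a1, the type III chain, had 215, 884 and 5810 CPM in immobilized limbs, against 93.2, 414 and 7489 CPM in control limbs. It rose by 0.99 ± 0.29 (FDR 0.0460, 16 of 22 mice), the least certain of the 5: the call was lost in 16 of the 22 fits that left out 1 mouse (FDR up to 0.0780), and without a term per mouse the FDR was 0.140. The other 4 genes kept their calls in all 22 such fits. Of all genes tested, 4.58% were called higher, 2.86% lower and 7.43% in either direction, and 3.98% were higher in the cast limb of at least 18 mice.

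**Figure D1:**
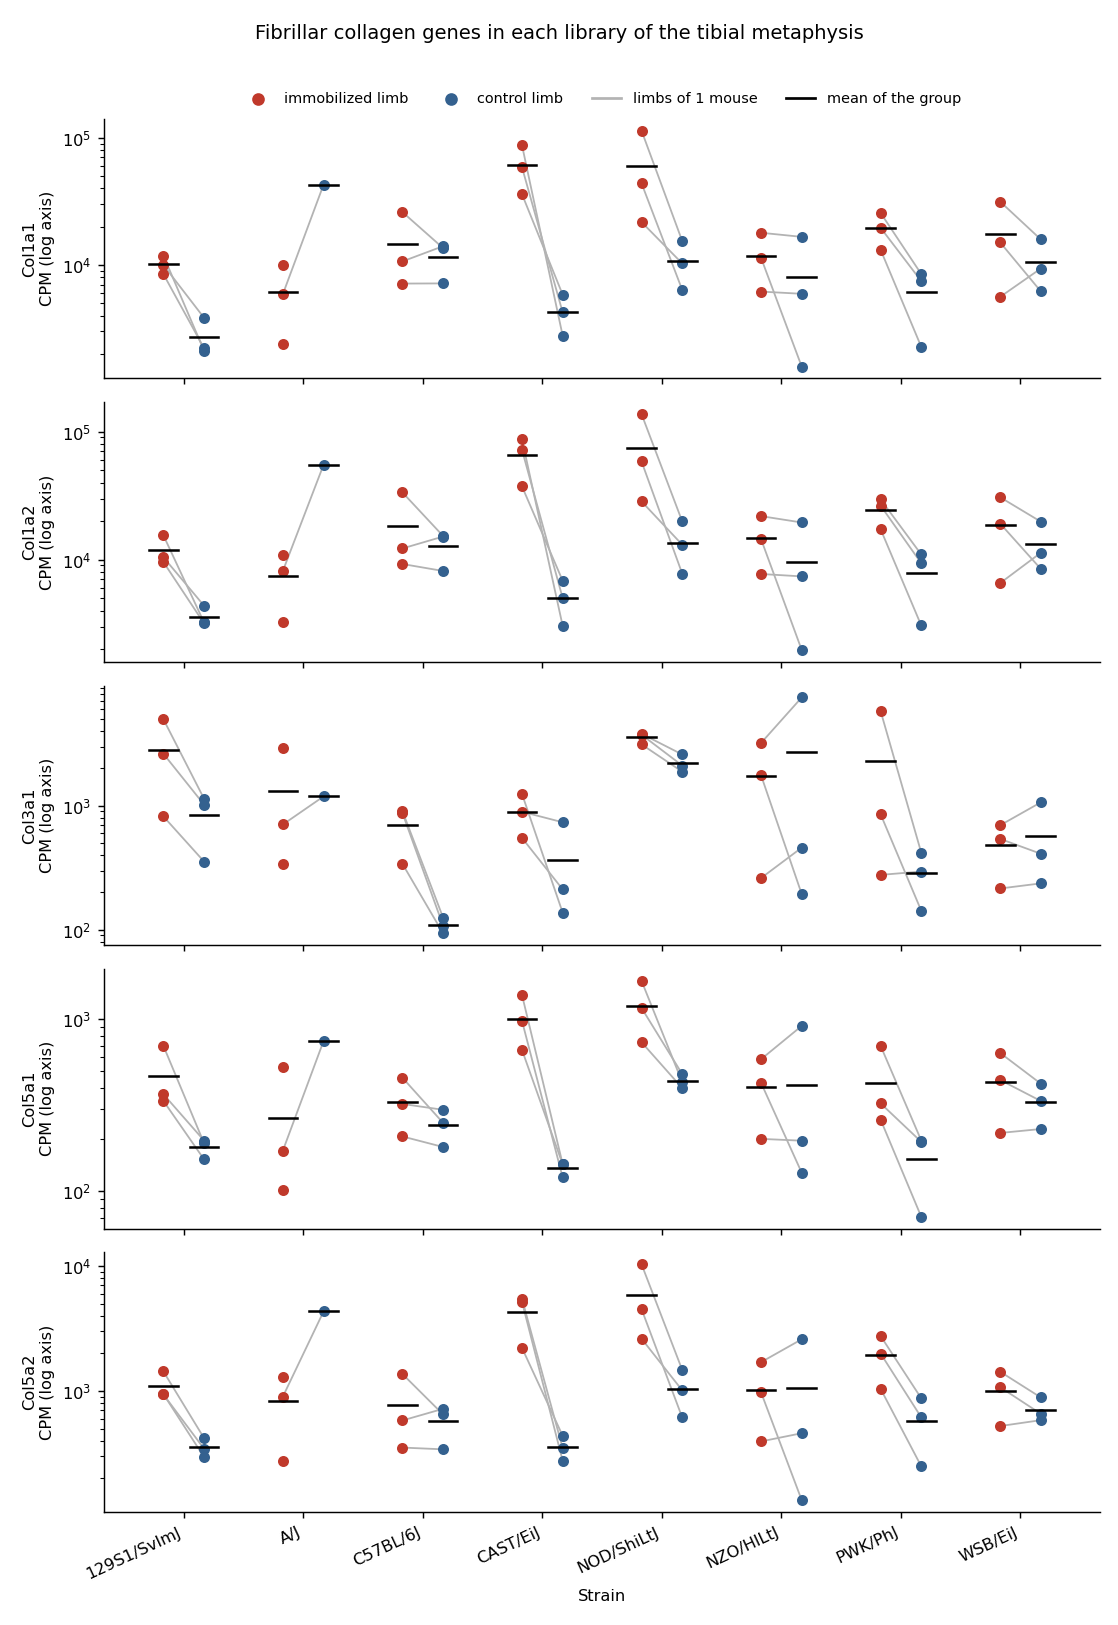
Level of each gene in CPM (log axis) in the 46 usable libraries, by strain, with the immobilized limb (red) left of the control limb (blue), lines joining the limbs of a mouse and bars at group means. In CAST/EiJ the 3 immobilized limbs lie above the 3 control limbs for every gene but Col3a1, and in the 1 A/J pair the control limb is the higher.

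Cell type markers moved in the same limbs. The summed level of 7 osteoblast markers was 1102 to 19136 CPM in immobilized limbs and 491 to 8519 CPM in control limbs, with the immobilized sum above its partner in 18 of 22 mice, and 4 of the 7 rose by edgeR's test (1 to 5 when 1 mouse was left out). The sum of 8 fibroblast and tendon markers was 236 to 3369 CPM in immobilized limbs and 143 to 3988 CPM in control limbs, higher in 16 of 22 mice, and edgeR called 0 of the 8 with all mice and 3 without the A/J mouse. Limb differences of the 5 genes had the same direction as that of the fibroblast and tendon sum in 16 to 20 of 22 mice. For the osteoblast sum it was 17 to 19, for the osteoclast sum 16 to 19 and for the chondrocyte sum 15 to 18. It was 10 to 16 for vascular smooth muscle, 10 to 14 for adipocyte, 8 to 13 for skeletal muscle and 6 to 9 for marrow blood cell markers. Such counts are high for any 2 values that are both higher in most mice. Here the 5 genes were higher in 16 to 19 mice and the osteoblast and osteoclast sums in 18. The counts were not compared with those of other genes. All 5 osteoclast markers rose, in each fit that left out 1 mouse too, and 8 of 10 muscle markers fell (2 to 9 when 1 mouse was left out). With each library's muscle score as a covariate, the changes of the 5 genes were 0.91 to 1.68 (FDR 0.0135 to 0.0493). The part of the osteoblast, fibroblast, tendon and osteoclast markers in the rise of the collagens was not tested.

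Within strains, the type I and type V chains had their largest fitted changes in CAST/EiJ, a wild-derived strain, in which 4 of the 5 genes rose (8.38% of all genes were called higher there). Col1a1 had 35943, 87311 and 58639 CPM in the immobilized limbs of mice 2, 3 and 4, against 5841, 2780 and 4238 CPM in their control limbs. The groups were far apart, and the fitted change was 3.79 ± 0.62 (FDR 0.00101). Col1a2 changed by 3.72 ± 0.62 (FDR 0.00118) and Col5a2 by 3.52 ± 0.55 (FDR 0.000822). For Col5a1 the immobilized limbs held 663, 1386 and 979 CPM and the control limbs 143, 144 and 120 CPM, a change of 2.84 ± 0.38 (FDR 0.000321). Col3a1 differed less, with 1245, 895 and 550 CPM in immobilized limbs against 137, 736 and 211 CPM in control limbs (1.59 ± 0.75, FDR 0.166). The mouse with the largest Col1a1 difference, number 3, had the smallest Col3a1 difference of the strain. The 4 calls held in each fit that left out 1 of the 3 mice. Summed osteoblast markers were 5452 to 9416 CPM in the immobilized limbs and 929 to 1414 CPM in the control limbs of this strain.

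In NOD/ShiLtJ the same 4 genes passed the FDR (5.55% of all genes were called higher). Col1a1 had 43807, 21725 and 113559 CPM in the immobilized limbs of mice 4, 5 and 6, against 6370, 10272 and 15436 CPM in control limbs (2.26 ± 0.58, FDR 0.0255). Col5a2 had 4520, 2620 and 10326 CPM in immobilized limbs against 615, 1012 and 1476 CPM in control limbs (2.36 ± 0.52, FDR 0.0138). Col1a2 changed by 2.29 ± 0.58 (FDR 0.0241) and Col5a1 by 1.37 ± 0.36 (FDR 0.0273). Col3a1 was tight in both limbs, at 3813, 3748 and 3131 CPM in immobilized limbs and 2595, 2113 and 1884 CPM in control limbs. The groups did not overlap, yet the change of 0.70 ± 0.69 did not pass (FDR 0.567). Without mouse 4 or without mouse 6 edgeR called 0 of 5, while over the 3 fits that left out 1 mouse the changes stayed at 1.93 to 2.83 for Col1a1, 1.95 to 2.85 for Col1a2, 1.08 to 1.62 for Col5a1 and 2.09 to 2.84 for Col5a2. Calls over all genes in this strain fell to 0 without mouse 4, against 1407 with all 3 mice. Osteoblast markers summed to 6093 to 19136 CPM in its immobilized limbs and 2079 to 3013 CPM in its control limbs.

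PWK/PhJ, another wild-derived strain, and 129S1/SvImJ gave changes of similar size that did not pass the FDR. In PWK/PhJ Col1a1 had 25619, 13137 and 19571 CPM in the immobilized limbs of mice 3, 4 and 6, against 8475, 2268 and 7458 CPM in control limbs (1.84 ± 0.56). The 5 changes ran from 1.49 to 2.17, with FDRs of 0.153 to 0.290. In this strain edgeR called 0 of the 5 genes, and 0.0355% of all genes were called higher. All 5 had an unadjusted p under 0.05 in edgeR, as did 12.2% of all genes. DESeq2 called 2 of the 5, and its share over all genes in the strain is not given here. In 129S1/SvImJ Col1a1 had 8470, 11836 and 9975 CPM in the immobilized limbs of mice 2, 3 and 6, against 2213, 2118 and 3839 CPM in control limbs (1.93 ± 0.56). Its 5 changes ran from 1.30 to 1.93, all higher in 3 of 3 mice. Both edgeR and DESeq2 called 0 of them, and edgeR called 0% of all genes higher. All 5 had an unadjusted p under 0.05 in edgeR, against 4.54% of all genes.

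In C57BL/6J Col3a1 had the largest fitted change of the 5 genes, and none passed the FDR. Col3a1 had 340, 874 and 903 CPM in the immobilized limbs of mice 1, 4 and 6, against 93.2, 108 and 125 CPM in control limbs, with no overlap between the limbs. Its change of 2.58 ± 0.74 had an unadjusted p of 0.00271 in edgeR and an FDR of 0.969. Col1a1 in the same mice had 7131, 26003 and 10649 CPM in immobilized limbs and 7152, 13557 and 14033 CPM in control limbs (0.18 ± 0.55), and the other 3 genes gave 0.27 to 0.40. Whether the change of Col3a1 differed from that of Col1a1 within this strain was not tested.

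NZO/HlLtJ and WSB/EiJ gave no change past the threshold. In NZO/HlLtJ Col1a1 had 17890, 11347 and 6166 CPM in the immobilized limbs of mice 4, 5 and 6, against 16609, 1586 and 5925 CPM in control limbs, so that mouse 5 alone stood out. In WSB/EiJ Col1a1 had 5603, 31436 and 15029 CPM in the immobilized limbs of mice 2, 4 and 5, against 9361, 15857 and 6194 CPM in control limbs. Changes of the 5 genes were 0.17 to 0.97 in NZO/HlLtJ and -0.12 to 0.53 in WSB/EiJ. In both strains and in C57BL/6J edgeR called 0, as did DESeq2. At an unadjusted p under 0.05 in edgeR it was 0 in NZO/HlLtJ (2.17% of all genes), 0 in WSB/EiJ (6.43%) and 1 in C57BL/6J (4.88%). In each of these 3 strains 0.00592% of all genes were called higher.

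The single A/J pair was lower in the immobilized limb for all 5 genes. Col1a1 had 5905 CPM in the immobilized limb of mouse 1 and 42740 CPM in its control limb, the highest of the 22 control limbs. Fitted differences were -2.86 ± 1.003 for Col1a1, -2.75 ± 0.995 for Col1a2, -2.12 ± 0.63 for Col5a1, -2.26 ± 0.88 for Col5a2 and -0.75 ± 1.197 for Col3a1. None passed edgeR's FDR (0.0628 to 0.751). In edgeR 4 had an unadjusted p under 0.05, as did 25.1% of all genes in this pair. DESeq2 called 4 of the 5 lower, and its share over all genes in the pair is not given here. Of all genes tested, edgeR called 2.71% higher and 1.28% lower in this pair. The SE assumes that A/J mice vary as those of the other strains do. The same control library had the highest osteoblast marker sum of the control limbs, 8519 CPM, and the part of this in the difference was not tested. A/J mice 2 and 5, whose control libraries were near empty, had 9964 and 2367 CPM of Col1a1 in their immobilized limbs.

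**Figure D2:**
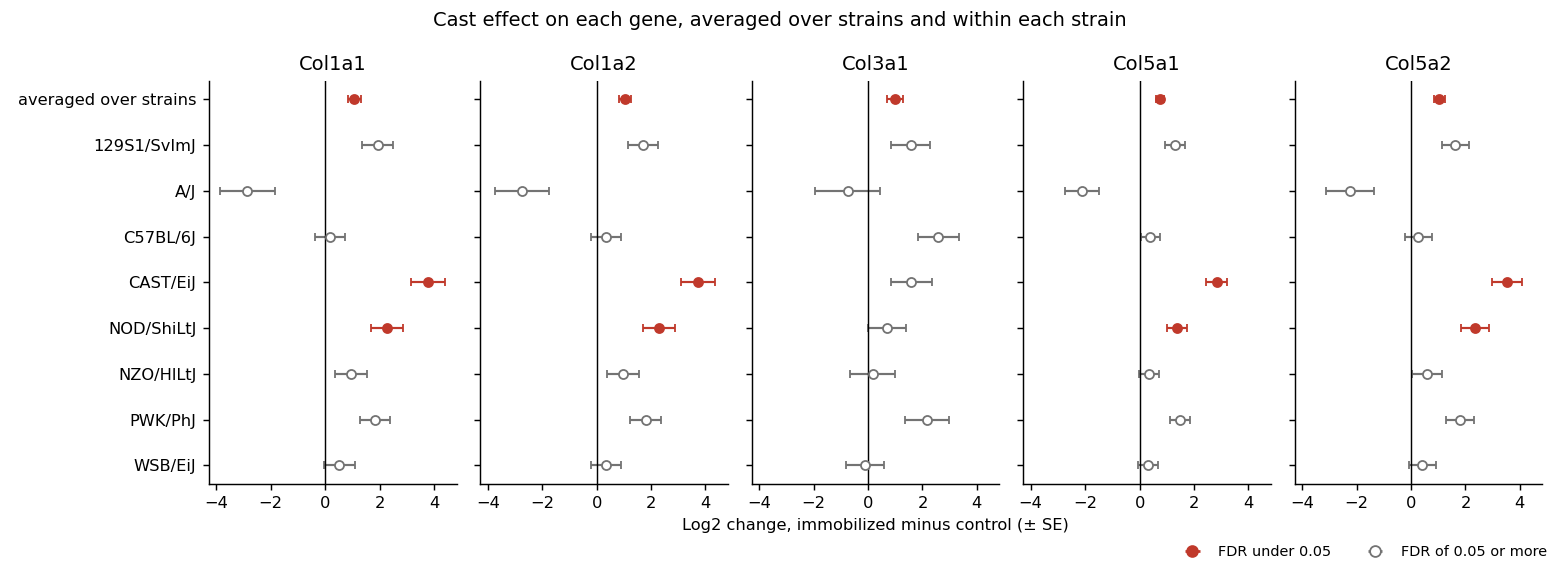
Log2 change, immobilized minus control, with its SE for each gene, averaged over strains (top) and within each strain, filled red where the FDR was under 0.05. The filled points within strains are the 4 genes other than Col3a1 in CAST/EiJ and NOD/ShiLtJ, and the A/J points rest on 1 mouse.

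Whether the 8 strain effects differed from one another was asked with an F test, which passed the FDR for Col5a1 (0.0244), Col5a2 (0.0382), Col1a1 (0.0434) and Col1a2 (0.0467), and not for Col3a1 (0.343). It called 2.5% of all genes. The 4 calls changed when single mice were left out. Without the A/J mouse 0 of the 5 genes were called (FDR 0.143 to 0.231 for these 4). In that fit the test called 4 genes in all, against 422 with the A/J mouse, so the loss was not particular to the collagens. Without CAST/EiJ mouse 3 or 4, 0 of the 5 were called. All 4 calls were kept in 6 of 22 fits that left out 1 mouse, and with no term per mouse 0 were called (FDR 0.146 to 0.159).

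The groups could also be set apart by range. All 3 immobilized limbs lay above all 3 control limbs for 5 genes in NOD/ShiLtJ (15.9% of all genes did so), for 4 in CAST/EiJ (18.2%), 4 in PWK/PhJ (6.4%) and 4 in 129S1/SvImJ (4.88%), in each of these 3 strains all but Col3a1. In C57BL/6J it was 1 gene, Col3a1 (9.18%), and in NZO/HlLtJ (2.29%) and WSB/EiJ (4.28%) it was 0. Both type I and both type V chains were thus separated, or not, together in every strain with 3 pairs.

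Levels within the immobilized limbs differed among strains for 4 of the 5 genes (FDR 0.0015 for Col1a2, 0.00156 for Col5a2, 0.00203 for Col1a1 and 0.0177 for Col5a1), against 50.3% of all genes, and not for Col3a1 (FDR 0.131). Without NOD/ShiLtJ replicate 6 Col5a1 was not called (FDR 0.0587), and without PWK/PhJ replicate 3 Col3a1 was (FDR 0.0380). Mean Col1a1 was highest in CAST/EiJ (60631 ± 25742 CPM, SD, n = 3) and NOD/ShiLtJ (59697 ± 47935). It then stood at 19442 ± 6242 in PWK/PhJ, 17356 ± 13073 in WSB/EiJ, 14595 ± 10035 in C57BL/6J, 11801 ± 5875 in NZO/HlLtJ, 10094 ± 1686 in 129S1/SvImJ and 6079 ± 3802 in A/J. Every neighbour in this order overlapped the next in range. Mean Col1a2 was 74707 ± 56113 CPM in NOD/ShiLtJ and 65424 ± 25439 in CAST/EiJ, and CAST/EiJ did not overlap the next strain, PWK/PhJ (24399 ± 6360). The other 5 strains ran from 18800 ± 12084 in WSB/EiJ to 7449 ± 3885 in A/J, each overlapping the next.

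For the type V chains the same 2 strains led. Mean Col5a1 was 1191 ± 470 CPM in NOD/ShiLtJ and 1010 ± 362 in CAST/EiJ, followed by 129S1/SvImJ (468 ± 203), WSB/EiJ (433 ± 210), PWK/PhJ (428 ± 238), NZO/HlLtJ (405 ± 193), C57BL/6J (329 ± 125) and A/J (268 ± 229). Mean Col5a2 was 5822 ± 4014 CPM in NOD/ShiLtJ and 4278 ± 1797 in CAST/EiJ, then 1928 ± 859 in PWK/PhJ, with the rest between 1105 ± 284 in 129S1/SvImJ and 766 ± 532 in C57BL/6J. Col3a1 kept another order: NOD/ShiLtJ (3564 ± 377 CPM), 129S1/SvImJ (2817 ± 2096), PWK/PhJ (2313 ± 3042), NZO/HlLtJ (1745 ± 1476), A/J (1314 ± 1386), CAST/EiJ (897 ± 347), C57BL/6J (705 ± 317) and WSB/EiJ (483 ± 245). All neighbours in these 3 orders overlapped.

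Within control limbs all 5 genes differed among strains (FDR 0.0151 to 0.0266), against 40.6% of all genes. Mean Col1a1 was 42740 CPM in the 1 A/J library, then 11581 ± 3843 in C57BL/6J, 10693 ± 4548 in NOD/ShiLtJ, 10471 ± 4926 in WSB/EiJ, 8040 ± 7731 in NZO/HlLtJ, 6067 ± 3329 in PWK/PhJ, 4286 ± 1531 in CAST/EiJ and 2724 ± 968 in 129S1/SvImJ. CAST/EiJ, first among immobilized limbs, was thus next to last here. Against the mean of the other 7 strains, the A/J library was higher for Col1a1 (2.63 ± 0.61, FDR 0.0322), Col1a2 (2.70 ± 0.58, FDR 0.0216) and Col5a2 (2.82 ± 0.63, FDR 0.0252), with 1.39% of all genes higher. As this is 1 library, these SEs and FDRs take the spread of the other strains for A/J. The call of Col1a1 was lost without 129S1/SvImJ replicate 2 (FDR 0.0504) or CAST/EiJ replicate 4 (FDR 0.0502). Without the A/J library, 2 of the 5 genes differed among strains, and the FDR of Col1a1 was 0.112, of Col1a2 0.111 and of Col5a2 0.235.

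The control order of the other chains was alike in part. Col1a2 ran from 55040 CPM in A/J and 13604 ± 6089 in NOD/ShiLtJ to 4972 ± 1905 in CAST/EiJ and 3593 ± 672 in 129S1/SvImJ. Col5a2 ran from 4325 CPM in A/J and 1062 ± 1336 in NZO/HlLtJ to 355 ± 80.9 in CAST/EiJ and 354 ± 62.5 in 129S1/SvImJ, and Col5a1 from 747 CPM in A/J and 437 ± 41.6 in NOD/ShiLtJ to 154 ± 71.8 in PWK/PhJ and 136 ± 13.5 in CAST/EiJ. For these genes neighbours other than A/J overlapped. Col5a1 lost its call among strains without CAST/EiJ replicate 4 (FDR 0.0574), CAST/EiJ replicate 2 (0.0517) or NOD/ShiLtJ replicate 4 (0.0501), and Col5a2 without CAST/EiJ replicate 4 (0.0516).

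Col3a1 in control limbs spread by 80.4-fold over the 22 libraries, a range set at its top by NZO/HlLtJ replicate 4 (7489 CPM); the next highest library, of NOD/ShiLtJ, held 2595 CPM. The C57BL/6J limbs were the lowest, at 109 ± 15.9 CPM, and did not overlap the next strain, PWK/PhJ (285 ± 138). CAST/EiJ stood at 361 ± 326, WSB/EiJ at 570 ± 437, 129S1/SvImJ at 839 ± 424, the A/J library at 1189 and NOD/ShiLtJ at 2197 ± 363, which overlapped neither A/J nor 129S1/SvImJ. NZO/HlLtJ averaged 2714 ± 4138. The test of Col3a1 among strains kept its call in all 22 fits that left out 1 library (FDR up to 0.0397). The difference of C57BL/6J from the other 7 was -2.98 ± 0.92 (FDR 0.0527) and that of NOD/ShiLtJ 2.003 ± 0.64 (FDR 0.0535). NZO/HlLtJ was higher than the other 7 (2.31 ± 0.63, FDR 0.0442, with 3.63% of all genes higher), but its 3 libraries held 7489, 194 and 459 CPM. The high value came from replicate 4, the library with few marrow markers, whose fibroblast and tendon sum was 3988 CPM. Without it the difference was -0.70 (FDR 0.575), and the call was lost in 16 of 22 fits that left out 1 library.

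Per kilobase of the longest coding transcript, the median level in immobilized limbs was 3404 CPM per kb for Col1a2, 2375 for Col1a1, 201 for Col5a2, 159 for Col3a1 and 53.6 for Col5a1. In control limbs it was 1553, 1140, 90.5, 74.4 and 23.4 CPM per kb in the same order. Per kilobase of all annotated exons Col1a1, at 2146 CPM per kb in immobilized limbs, stood above Col1a2 at 1465, so the order of the type I chains depends on the length used. Together the 5 genes took from 0.402% of a library's counts, in NZO/HlLtJ control replicate 5, to 21.1%, in NOD/ShiLtJ immobilized replicate 6.

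Ratios between chains do not depend on how libraries are scaled. The ratio of Col1a1 to Col1a2 counts had a median of 0.806 in immobilized limbs (0.722 to 1.02) and 0.804 in control limbs (0.655 to 0.926). Within mice its log2 value differed between limbs by 0.04 ± 0.03 (SE, SD 0.155, 22 mice), which did not pass a permutation test of random sign flips (p = 0.282, 0.628 adjusted over the 10 pairs of genes). By contrast, Col5a1 lagged behind on average. In these tests each mouse weighed the same, unlike in the averages over strains, and mice of the same strain were taken as independent. The log2 ratio of Col1a1 to Col5a1 counts averaged 5.23 in immobilized limbs and 4.80 in control limbs, a difference of 0.43 ± 0.14 that was positive in 17 of 22 mice (permutation p = 0.00603, adjusted 0.0290). For Col1a2 to Col5a1 it was 0.40 ± 0.14 (17 of 22 mice, permutation p = 0.00869, adjusted 0.0290). Col5a1 also fell relative to its partner Col5a2, by 0.35 ± 0.11, with a higher ratio in 7 of 22 mice (permutation p = 0.00545, adjusted 0.0290). Each of these 3 missed the threshold without CAST/EiJ mouse 3, NOD/ShiLtJ mouse 4 or 6, or NZO/HlLtJ mouse 5 (adjusted p up to 0.0567).

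For Col5a2 against type I no difference passed, the log2 ratio of Col1a1 to Col5a2 differing by 0.09 ± 0.09 between limbs (permutation p = 0.314, adjusted 0.628). Ratios with Col3a1 were wide. The within-mouse difference for Col1a1 to Col3a1 had an SD of 1.89, against 0.155 for Col1a1 to Col1a2, with a mean of 0.27 ± 0.40 (permutation p = 0.510, adjusted 0.629). An SE of this size leaves room for a change of the ratio in either direction.

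**Figure D3:**
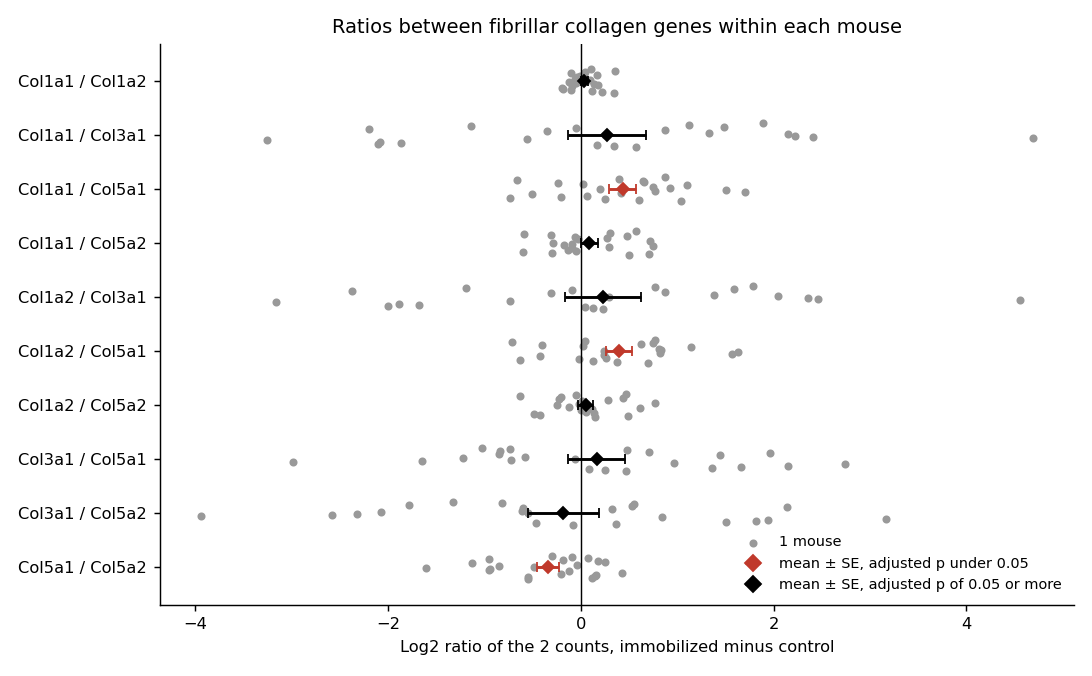
Within-mouse difference, immobilized minus control, of the log2 ratio between 2 genes' counts, for all 10 pairs (grey points, 22 mice, spread vertically for legibility; diamonds, mean ± SE). The 3 red pairs, each with Col5a1, have an adjusted p of 0.0290, and the pairs with Col3a1 spread the most.

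As a description, log2 CPM of Col1a1 and Col1a2 correlated with r = 0.996 over the 46 libraries and also over the 22 within-mouse differences. Most libraries come in pairs from 1 mouse and all share the scaling. Col5a1 and Col5a2 gave r = 0.923 over libraries and 0.955 over differences. Col3a1 correlated with Col1a1 at 0.365 over libraries and 0.302 over differences, and with Col5a2, its neighbour on chromosome 1, at 0.583 and 0.348. Among all genes tested, the levels most like Col1a1, after Col1a2, were those of Col11a1 (0.975), Sparc (0.971), the carboxypeptidase gene Cpz (0.968) and Col22a1 (0.960). Those most like Col3a1 were Col16a1 (0.9495), Thbs2 (0.944), Postn (0.930), Col12a1 (0.922) and Lum (0.919), none of which is on the list of Col1a1, and Postn is also one of the 8 fibroblast and tendon markers.

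Nearest to Col5a1 were Bmp1 (0.948), which encodes a procollagen C-proteinase, the collagen chaperone gene Fkbp10 (0.946), C1qtnf6 (0.938), the prolyl 3-hydroxylase gene P3h1 (0.928) and Mmp2 (0.927). For Col5a2 they were Sparc (0.967), C1qtnf6 (0.966), Col11a1 (0.965), Tmem119 (0.954) and Col1a2 (0.946), of which Sparc, Col11a1 and Col1a2 are also on the list of Col1a1. Over the within-mouse differences C1qtnf6 was nearest to Col5a1 (0.993), Mamdc2 to Col5a2 (0.984) and Dkk3 to Col3a1 (0.953).

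**Figure D4:**
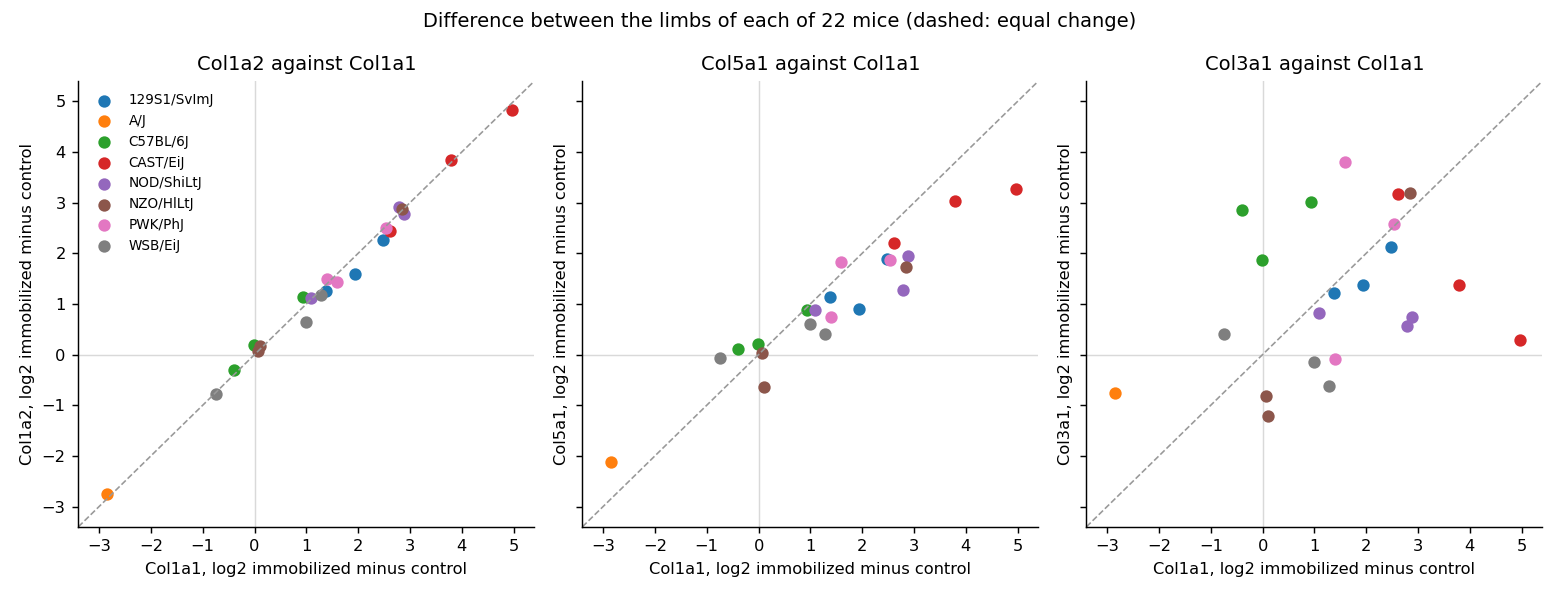
Log2 difference between the limbs of each of 22 mice, Col1a1 on the x axis and Col1a2, Col5a1 or Col3a1 on the y axis, coloured by strain, with a dashed line of equal change. Col1a2 lies along the line (r = 0.996), Col5a1 along a flatter course, and Col3a1 scatters (r = 0.302), with the C57BL/6J mice above the line.

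The rest of the collagen pathway was examined by role, with the median change of each list beside 0.01 for all genes. Of all genes tested, 4.58% were called higher and 2.86% lower, the shares to set beside the counts of each list. Of 21 tested genes of collagen folding and secretion, 11 rose and 0 fell (median 0.39). Fkbp10 rose by 0.95 ± 0.16, P3h4 by 0.74 ± 0.19, P3h1 by 0.68 ± 0.14 and the lysyl hydroxylase gene Plod2 by 0.65 ± 0.19, whose call was lost in 15 of 22 fits without 1 mouse. Serpinh1, the collagen-specific chaperone HSP47, had 0.54 ± 0.17 (FDR 0.0588), and the prolyl 4-hydroxylase subunit P4ha1 0.24 ± 0.15 (FDR 0.372). Of 12 genes that trim and cross-link procollagen, 7 rose and 0 fell (median 0.63), among them the lysyl oxidase Lox by 1.14 ± 0.23, Loxl4 by 0.92 ± 0.25 (lost in 9 of 22 fits), Bmp1 by 0.73 ± 0.13 and Adamts3, which removes N-propeptides, by 0.65 ± 0.16.

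Among 15 fibril-associated proteins 5 rose and 0 fell (median 0.57): the proteoglycans Lum by 1.10 ± 0.23 and Dcn by 0.67 ± 0.17, the collagen-binding Sparc by 1.01 ± 0.19, fibronectin Fn1 by 0.62 ± 0.19 (lost in 17 of 22 fits) and Tgfbi by 0.35 ± 0.10 (lost in 12). Of 13 genes of collagen breakdown, proteases and their inhibitors together, 6 rose, 0 fell and 7 did not pass (median 0.59), with the inhibitor Timp1 at 1.30 ± 0.25, the osteoclast protease and marker Ctsk at 1.21 ± 0.22, the collagenase Mmp13 at 0.94 ± 0.20 and the gelatinase Mmp2 at 0.73 ± 0.14. For collagen receptors edgeR called 0 of 10 (median 0.06, 1 at an unadjusted p under 0.05, 0 by DESeq2), the fibrillar collagen receptor Ddr2 having 0.21 ± 0.13. With 7.43% of all genes called in either direction, 10 genes are too few to set 0 calls apart from that share. Without the A/J mouse 4 of the 10 rose. Of 17 regulators of collagen genes 3 rose and 0 fell (median 0.05): Creb3l1, an activator of collagen genes in bone, by 0.82 ± 0.16, the osteoblast factor Sp7, also counted among the osteoblast markers, by 0.56 ± 0.16 (lost in 11 of 22 fits) and the TGF-beta receptor Tgfbr1 by 0.39 ± 0.09. The osteoblast factor Runx2 had 0.15 ± 0.10 and Tgfb1 0.05 ± 0.07.

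Of the 6 other fibrillar collagens, Col11a1 rose by 1.06 ± 0.27 and Col11a2 by 0.70 ± 0.20 (lost in 16 of 22 fits), while the third type V chain, Col5a3, had 0.41 ± 0.21 (FDR 0.252) and the cartilage collagen Col2a1 0.54 ± 0.41 (FDR 0.489). Of 31 tested non-fibrillar collagens 5 rose and 1 fell (median 0.30). The largest fitted changes among them were in collagens of cartilage and did not pass: Col10a1 of hypertrophic cartilage had 3.26 ± 1.06 (FDR 0.0705), and the type IX chains Col9a1, Col9a3 and Col9a2 had 2.10 ± 0.79 (FDR 0.117), 1.80 ± 0.62 (FDR 0.0840) and 1.44 ± 0.52 (FDR 0.102). These 3 type IX chains were chosen after their values were seen. The type VI chains Col6a2, Col6a1 and Col6a3 rose by 0.90 ± 0.16, 0.82 ± 0.14 and 0.72 ± 0.18, Col22a1 by 0.63 ± 0.16 (lost in 2 of 22 fits) and Col13a1 by 0.62 ± 0.15. Col7a1, the anchoring fibril collagen of skin, changed by -0.98 ± 0.25. Fits that left out 1 mouse, added after the data were seen, moved these counts most for the A/J pair: without it 16 of 21 folding genes, 11 of 12 processing genes, 7 of 15 fibril-associated genes, 10 of 13 breakdown genes, 14 non-fibrillar collagens, 5 of 6 other fibrillar collagens, 4 of 10 receptors and 5 of 17 regulators rose. Calls over all genes moved likewise, to 2803 without the A/J pair, against 1255 with it.

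**Figure D5:**
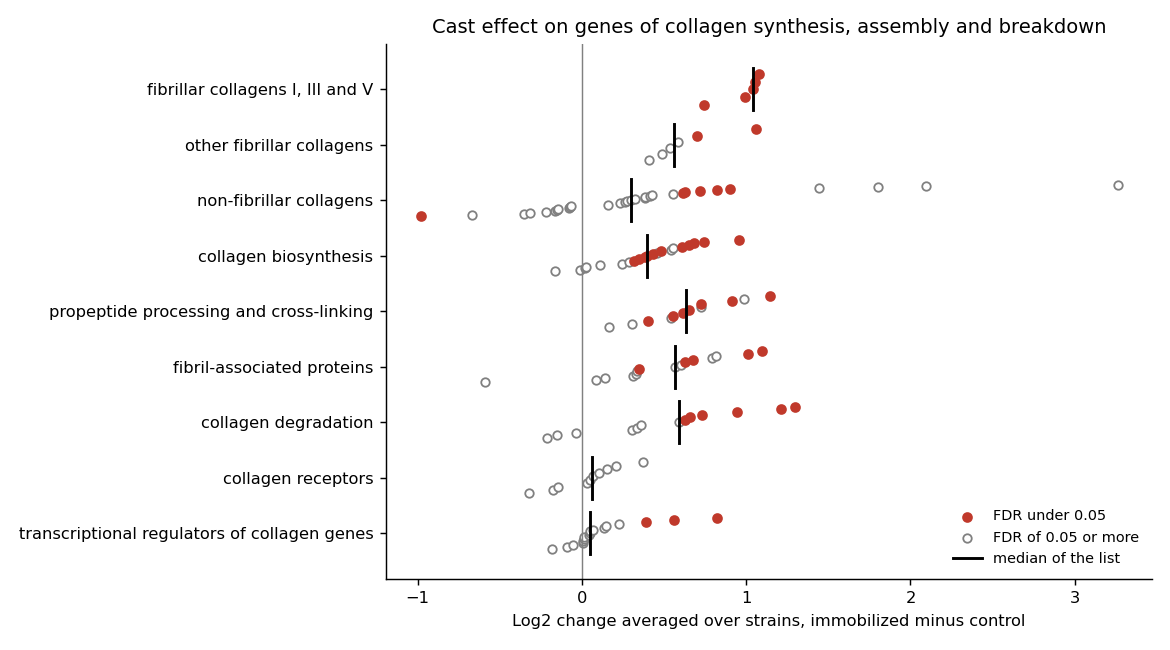
Log2 change averaged over strains, immobilized minus control, of each tested gene by role (red, FDR under 0.05; open, FDR of 0.05 or more; black bars, list medians; points spread vertically for legibility). Lists of synthesis, processing, fibril partners and breakdown have medians of 0.39 to 0.63, against 1.04 for the 5 fibrillar collagens and 0.06 and 0.05 for receptors and regulators.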

How the data were processed

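Whole-number counts per gene were deposited for 48 libraries; the authors extracted RNA with a Qiagen RNeasy Plus Mini Kit and prepared stranded TruSeq mRNA libraries for paired-end NovaSeq sequencing, per the labels' protocols. Counting with featureCounts on the mm10 build, which derives from C57BL/6J, and DESeq2 are listed per the submitters' processing notes, without versions; no source used here names an aligner, annotation or strand setting. Gene positions and lengths come from GENCODE on GRCm38.

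From these counts, edgeR 4.0.16 (R 4.3.3) fitted quasi-likelihood models after TMM scaling and filterByExpr. Paired fits used the 44 libraries of 22 mice, with a term for each mouse and a limb effect for each strain; control and immobilized limbs were also fitted alone over strains. SE is the absolute log2 change divided by the square root of F. The pairing comes from the series' design; over 21 mice, the limbs' deviations from their group means correlated with a median r of 0.0894 (-0.26 to 0.547), above 0.1 in 10. Ratios between chains used log2 of count + 0.5 and 100000 random sign flips over mice, two-sided. Correlations are of log2 CPM with a prior count of 2.

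Alternatives were DESeq2 1.42.0, other scalings, no filter, no mouse term, all 48 libraries, a muscle covariate and leaving out each mouse. On simulated counts the averaged test recovered 89.7% of 194 genes changed by 1 (log2) among 15976, with 4 unchanged genes called. The test among strains recovered 80% of 195 genes changed by 2 in CAST/EiJ alone, with 5 other genes called. The simulation gave all strains a common mean per gene and a spread set by level only. It held no effect shared by the limbs of a mouse, so these figures do not measure recovery in the real data. Other genes were named by a rule: up to 4 called genes per direction in a list by size of change, plus defining members, and the 5 most alike to each collagen; Ddr2, Runx2 and similar uncalled genes are such defining members. The genes, lists and rules were chosen with earlier results of these data known.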

Additional observations from a re-analysis of the deposited data

Results flagged for a closer look

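The effect of the cast differed among the 8 strains for 4 of the 5 genes by edgeR's F test of the difference itself (Benjamini-Hochberg FDR 0.0434 for Col1a1, 0.0467 for Col1a2, 0.0244 for Col5a1 and 0.0382 for Col5a2). Col1a1 changed by 3.79 ± 0.62 (log2, SE) in CAST/EiJ and 2.26 ± 0.58 in NOD/ShiLtJ, 3 mice each, and had a difference of -2.86 ± 1.003 in the 1 A/J mouse. In 3 of 22 fits that left out 1 mouse (A/J mouse 1, CAST/EiJ mouse 3 and CAST/EiJ mouse 4) none of the 5 genes was called. Over all genes the F test called 4 without A/J mouse 1, against 422 with it. In a further 11 fits only 1 gene was called, and all 4 calls were kept in 6. With no term per mouse 0 were called. Osteoblast marker sums moved in the same direction as Col1a1 in these strains, but not in all strains. In WSB/EiJ mice 2, 4 and 5 they were 1701, 2705 and 3342 CPM in immobilized limbs against 2035, 3197 and 3978 CPM in control limbs. Col1a1 was higher in the cast limb of 2 of these 3 mice. In 129S1/SvImJ mice 2, 3 and 6 the sums were 2941, 2931 and 2111 CPM against 2145, 2574 and 1513 CPM, with a Col1a1 change of 1.93. The part of these markers was not tested.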

How the results depend on the processing

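The averaged rise kept its direction for all 5 genes under every alternative run. Col1a1, Col1a2, Col5a1 and Col5a2 kept their calls under all of them, and Col3a1 lost its call with no replicate block (FDR 0.140), with total counts as the only scaling (0.0664) and with no filter on low counts (0.1002). Genes called numbered 1255, and 730 with no filter. For differences among strains, 4 of the 5 collagens were called, against 0 with no replicate block, 0 with all 48 libraries, 2 with total counts only and 1 with the muscle covariate. Over all genes that test called 422, against 1 with no replicate block, 211 with total counts only, 205 with the muscle covariate and 2157 with DESeq2. In CAST/EiJ 2339 genes were called, against 1257 with no replicate block and 3658 with total counts only. In NOD/ShiLtJ 4 collagens were called, against 2 with all 48 libraries, and in PWK/PhJ 0, against 2 with DESeq2. In control limbs 5 collagens differed among strains, against 1 with all 24 libraries, and 4 single-strain calls became 2.

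With all 48 libraries the A/J differences turned to 0.76 for Col1a1, 0.69 for Col1a2 and 0.81 for Col3a1. With the muscle covariate Col3a1 turned to 0.92 in A/J and 0.83 in WSB/EiJ. In NZO/HlLtJ, with no replicate block, Col3a1 turned to -0.64, Col5a1 to -0.031 and Col5a2 to -0.054. The all-48 fits add 2 libraries of 50 and 2335 counts by construction; for the rest the cause was not tested.

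Leaving out each mouse in turn gave 4 to 5 collagens and 756 to 2803 genes for the averaged effect. For differences among strains it gave 0 to 4 collagens and 4 to 1185 genes, the 4 without the A/J mouse. It gave 679 to 1016 genes in CAST/EiJ, 0 to 4 collagens and 0 to 1125 genes in NOD/ShiLtJ, and 0 to 1 collagens in PWK/PhJ. In control limbs it gave 2 to 5 collagens, 5103 to 9107 genes and 2 to 12 single-strain calls, in immobilized limbs 3 to 5 collagens and 6932 to 8548 genes, and 0 to 3 chain ratios. Signs turned within these ranges for C57BL/6J Col1a1 (-0.20 to 0.47), Col1a2 (-0.064 to 0.66) and Col5a2 (-0.13 to 0.56), NZO/HlLtJ Col3a1 (-1.02 to 1.17), Col5a1 (-0.31 to 0.87) and Col5a2 (-0.41 to 1.30), WSB/EiJ Col1a2 (-0.074 to 0.91) and Col3a1 (-0.38 to 0.13), and Col3a1 in NZO/HlLtJ control limbs (-0.70 to 2.86).

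A/J rests on 1 pair, each other strain on 3. Each library had at least 5253408 counts, and the lowest level of any of the 5 genes was 70.9 CPM, so counting error at this depth is small beside the spread between mice.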
